A study of Mus musculus with 9 samples.

Results

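The 7 genes described here encode the receptors that bind the constant part of IgG and the chains that carry their signal. Fcgr1, Fcgr3 and Fcgr4 encode the activating Fc gamma receptors, Fcgr2b encodes the inhibitory one, Fcer1g and Tyrobp encode the adaptors FcRgamma and DAP12, and Syk encodes the kinase that acts next. They were chosen by symbol, and each symbol was found on 1 entry of a table of 37801 genes. The values were FPKM, the number of sequenced fragments scaled for transcript length and library size, in RNA from mouse lymph nodes.

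The nodes came from 3 groups of 3 libraries. WT animals were albino mice labelled FVB/NJ, with normal Nras and normal MHC class II. Tyr-NrasQ61K animals carried an activated Nras gene driven by the tyrosinase promoter, which is active in melanocytes, on a strain labelled FVB/NJ (Cross). They were Cre-negative and kept MHC class II. Tyr-NrasQ61K MHCII-KO animals, called MHCII-KO below, carried the same transgene on the same cross, were Cre-positive and are labelled as lacking MHC class II. The sources used here give neither the cells in which Cre acted nor the ages of the animals. The study's methods describe the controls as albino littermates without the transgene, while the labels give WT as FVB/NJ and the others as the cross. If the labels hold, strain and transgene cannot be told apart. The libraries are described as separate samples, but whether each came from 1 mouse is not stated, so p-values measure the spread between these libraries.

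Fc gamma receptors let macrophages, dendritic cells, neutrophils, mast cells and B cells sense antibody bound to its antigen. The activating receptors signal through an immunoreceptor tyrosine-based activation motif (ITAM), which in the mouse lies mainly on the FcRgamma chain. Src family kinases phosphorylate its tyrosines and Syk then docks on them. The inhibitory receptor has a single motif of another kind, the ITIM, in its own tail, which recruits the phosphatase SHIP-1. B cells have Fcgr2b as their main Fc gamma receptor, whereas macrophages hold activating and inhibitory receptors together, and lymph nodes are rich in both cell types.

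The sequences that set activating signalling apart from inhibitory signalling are shown first, because the activating to inhibitory ratio below rests on that division. An ITAM was searched in the translated coding sequence as a tyrosine, any pair of residues and leucine or isoleucine, repeated after a gap of 6 to 8 residues. It matched Fcer1g and Tyrobp alone among the 7 genes and 2.82% of 21901 mouse coding genes. The ITIM of Fcgr2b lies close to the end of its protein, at residues 317 to 322 of 340. It was searched as isoleucine, leucine, valine or serine, any residue, tyrosine, any pair of residues, and leucine or valine, a loose pattern, since 40.8% of coding genes hold a match, among them Fcgr1, Fcgr4, Fcer1g and Tyrobp, whose matches are not read as ITIMs here. The coding stretches from GENCODE M21 (GRCm38) are given 5′ to 3′ on the coding strand, with the tyrosine codons in capitals. The ITAM of Fcer1g (chr1:171229889-171230072, minus strand) and that of Tyrobp (chr7:30415670-30417382, plus strand) are each split by an intron, which is left out. The ITIM of Fcgr2b lies at chr1:170961071-170961088 on the minus strand.
Fcer1g ITAM: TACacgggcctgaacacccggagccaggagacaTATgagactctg
Tyrobp ITAM: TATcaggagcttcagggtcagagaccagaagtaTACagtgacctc
Fcgr2b ITIM: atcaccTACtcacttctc

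Fcgr2b, Fcgr4, Fcgr3 and Fcer1g lie within 275.7 kb of chromosome 1, while Fcgr1 is on chromosome 3, Tyrobp on chromosome 7 and Syk on chromosome 13. Of all 36-base words in the main Fcgr3 transcript, 15.9% also occur in Fcgr2b, so reads from that stretch could have been shared between the 2 genes. For the main Fcgr2b transcript, 5.93% of the words occur in Fcgr3 and 13.8% in any other gene, Fcgr3 included. No 36-base word of Fcgr1, Fcer1g, Tyrobp or Syk occurs in another gene, and 0.410% of those of Fcgr4 do. The split of shared reads therefore bears on Fcgr3 and Fcgr2b, and hardly on Fcgr1 and Fcgr4.

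The promoters of Fcgr1 and Fcgr4 are shown because the ratio between these receptor genes, chosen after its values were seen, is described below. Neither gene passed the test in any comparison. Both strands were searched for AGGAAG, the core bound by PU.1, the main transcription factor of macrophages. Capitals mark matches, here as the reverse complement CTTCCT. The windows are the 100 bases before the RefSeq start (GRCm38.p6). The Fcgr1 window holds 2 overlapping matches that begin 60 and 56 bases before the start, and the Fcgr4 window holds 1. Of 32851 mouse promoters, 13.8% hold the motif in a window of this length. Fcgr3 and Fcer1g also hold 1 each, and the windows of Fcgr2b and Syk hold 0. A match is only a run of letters and says nothing on binding.
Fcgr1 promoter, chr3:96293970-96294069, minus strand: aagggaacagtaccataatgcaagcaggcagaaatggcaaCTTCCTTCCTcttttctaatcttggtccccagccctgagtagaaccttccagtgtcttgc
Fcgr4 promoter, chr1:171018826-171018925, plus strand: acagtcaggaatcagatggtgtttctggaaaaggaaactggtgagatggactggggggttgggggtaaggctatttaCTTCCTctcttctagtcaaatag

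Several facts about the libraries bear on what follows. The deposited FPKM carry no read totals, but single-exon genes fall on steps of 1 fragment, which gave an estimated 6260000 to 13920000 fragments per library. The second libraries of both NrasQ61K groups lay far from the others on the first principal component and were the shallowest, at an estimated 6260000 and 7270000 fragments. On the second component Tyr-NrasQ61K replicate 3 lay alone at -100, while the other libraries ran from -12.9 to 35. The submitters' source name is nevus melanocytes, but markers of lymph-node cells dominated. Summed over 8 genes, B cell markers were 337 to 667 FPKM, and 7 melanocyte markers had sums of 3.89 to 5.67 FPKM in WT nodes. In Tyr-NrasQ61K nodes that sum was 12.5 to 17.01 FPKM, and in MHCII-KO nodes 6.79 to 11.8 FPKM. MHC class II transcripts were not lower in every MHCII-KO library, since H2-Ab1 was 149 to 276 FPKM in Tyr-NrasQ61K and 108 to 271 FPKM in MHCII-KO nodes. Across whole nodes, fewer cells of a type and less RNA per cell cannot be told apart.

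Levels per length differed widely among the 7 genes. Averaged over the 9 libraries, Tyrobp had 115 FPKM, Syk 58.6, Fcgr2b 35.04, Fcer1g 32.9, Fcgr3 17.8, Fcgr4 3.26 and Fcgr1 2.17 FPKM. The inhibitory receptor made up between 51.0% and 72.6% of the FPKM of all 4 Fc gamma receptor genes in every library. Fcgr3 supplied 23.2% to 36.3%, Fcgr4 2.12% to 8.61% and Fcgr1 0.850% to 8.54%. Neighbours in the order of means were not all separate. Fcgr2b and Fcer1g changed places between libraries, so did Fcgr4 and Fcgr1, and Tyrobp was just under Syk in WT replicate 2.

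**Figure D1:**
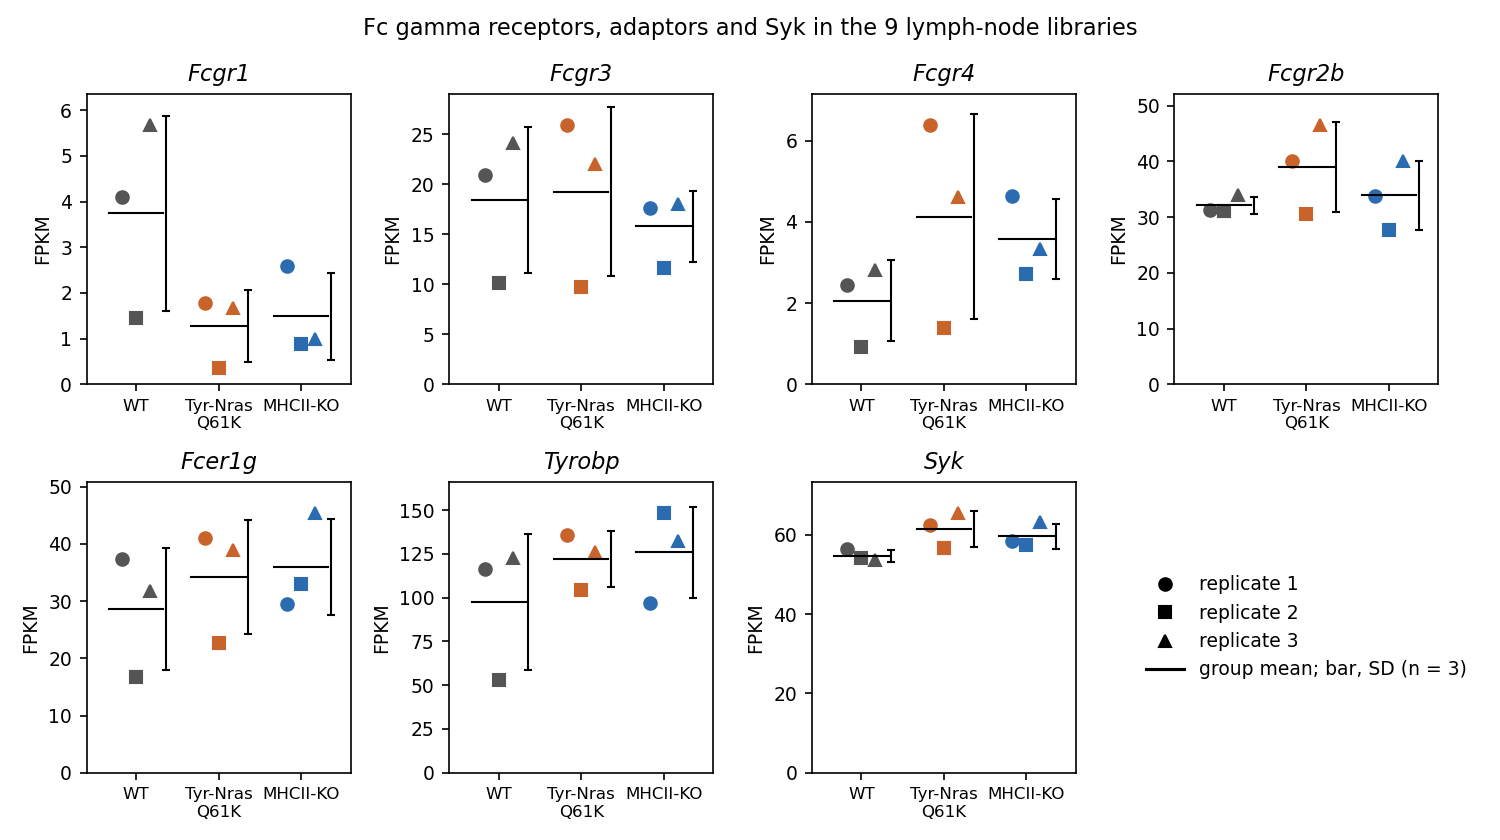
FPKM of each gene (vertical axes, from 0) in the 9 libraries, grouped by genotype. Points are libraries, shaped by replicate number, horizontal lines are group means and bars are SD (n = 3). The highest Fcgr1 values (4.10 and 5.68 FPKM) and the lowest Fcgr4 value (0.927 FPKM) are in WT, but the groups overlap for both genes. Replicate 2 of each group is low for all 3 activating receptors.

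None of the 7 genes passed the test in any comparison, by limma with an adjusted p of at most 0.05 across 16587 genes. In the comparison of Tyr-NrasQ61K with WT, 0 of 7 were called against 0.235% of all genes tested. In MHCII-KO against WT it was 0 of 7 against 0.145%, in MHCII-KO against Tyr-NrasQ61K 0 of 7 against 0.0482%, and in both NrasQ61K groups against WT 0 of 7 against 0.398%. At an unadjusted p under 0.05, 0 of 7 were counted in each of the first 3 comparisons and 1 of 7, Fcgr1, in the last. The shares of all genes tested at that level were 15.2%, 15%, 1.52% and 21.7%, so 1 of 7 is no more than the background. The 95% intervals leave room for changes of about 1 on the log2 scale in either direction for Fcgr3, and are narrowest for Syk and Fcgr2b. The median of all genes tested was -0.12 in Tyr-NrasQ61K and -0.22 in MHCII-KO nodes against WT on the log2 scale, and each value below can be read against it. All fold changes are on the log2(FPKM + 1) scale, which understates the change of genes with low values such as Fcgr1 and Fcgr4.

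Fcgr1 encodes the high-affinity receptor CD64, found on macrophages and monocytes. Its level was 4.10, 1.45 and 5.68 FPKM in the WT libraries, 1.78, 0.358 and 1.67 FPKM in Tyr-NrasQ61K nodes, and 2.59, 0.879 and 0.997 FPKM in MHCII-KO nodes, in the order of replicates 1 to 3. WT replicates 1 and 3 lay above all 6 NrasQ61K libraries, and WT replicate 2 lay among them. The mean was 3.75 ± 2.14 FPKM in WT, 1.27 ± 0.791 in Tyr-NrasQ61K and 1.49 ± 0.955 in MHCII-KO nodes (SD, n = 3 each). The log2 fold change was -1.02 (95% interval -2.05 to 0.01, adjusted p = 0.329 from limma) in Tyr-NrasQ61K and -0.88 (95% interval -1.91 to 0.15, adjusted p = 0.345 from limma) in MHCII-KO nodes against WT. With both NrasQ61K groups set against WT it was -0.95 (standard error 0.389, unadjusted p = 0.0394 and adjusted p = 0.220 from limma). The lowest value, in Tyr-NrasQ61K replicate 2, rests on an estimated 6 fragments, and its exact Poisson 95% interval for counting error alone was 0.131 to 0.779 FPKM.

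Fcgr4 encodes the receptor for IgG2a and IgG2b on macrophages, monocytes and neutrophils. Its values of 2.45, 0.927 and 2.80 FPKM in WT compare with 6.40, 1.40 and 4.61 FPKM in Tyr-NrasQ61K and with 4.65, 2.73 and 3.34 FPKM in MHCII-KO nodes. Of the 6 libraries carrying the transgene, 4 lay above every WT library, and replicate 2 of each NrasQ61K group lay below the highest WT value. The log2 fold change was 0.66 (95% interval -0.34 to 1.66, adjusted p = 0.432 from limma) in Tyr-NrasQ61K and 0.62 (95% interval -0.38 to 1.62, adjusted p = 0.440 from limma) in MHCII-KO nodes against WT. Its fitted change thus had the sign opposite to that of Fcgr1 in each comparison with WT, and neither gene passed the test.

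Fcgr3 encodes CD16, the most abundant activating receptor here. It stood at 20.99, 10.2 and 24.1 FPKM in WT, at 26.0, 9.77 and 22.03 FPKM in Tyr-NrasQ61K, and at 17.6, 11.65 and 18.1 FPKM in MHCII-KO nodes. The groups overlapped fully, and replicate 2 was the lowest library of each. The log2 fold change was 0.04 (95% interval -0.95 to 1.03) in Tyr-NrasQ61K and -0.15 (95% interval -1.14 to 0.84) in MHCII-KO nodes, and the sign of the second turned to 0.12 when libraries were scaled by median ratios.

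Fcgr2b, the inhibitory receptor, varied least among the 4 receptors, with a highest library 1.68 times the lowest. It was 31.3, 31.2 and 33.9 FPKM in WT, 40.1, 30.6 and 46.6 FPKM in Tyr-NrasQ61K, and 33.9, 27.8 and 40.1 FPKM in MHCII-KO nodes. In Tyr-NrasQ61K nodes replicates 1 and 3 lay above all WT libraries and replicate 2 below them, with a log2 fold change of 0.26 (95% interval -0.30 to 0.81, adjusted p = 0.575 from limma). In MHCII-KO nodes it was 0.06 (95% interval -0.49 to 0.62).

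The adaptors are shared by many receptors. Fcer1g (FcRgamma) had 37.3, 16.8 and 31.7 FPKM in WT, 41.05, 22.8 and 38.9 FPKM in Tyr-NrasQ61K, and 29.6, 32.9 and 45.4 FPKM in MHCII-KO nodes. Tyrobp (DAP12), which serves TREM and other myeloid and NK cell receptors, had 116, 53.0 and 123 FPKM in WT, 136, 105 and 126 FPKM in Tyr-NrasQ61K, and 97.0, 148 and 132 FPKM in MHCII-KO nodes. For both adaptors WT replicate 2 was the lowest of the 9 libraries. Their log2 fold changes against WT were 0.28 and 0.41 in Tyr-NrasQ61K and 0.37 and 0.44 in MHCII-KO nodes, for Fcer1g and Tyrobp in that order, with adjusted p from 0.520 to 0.685 by limma.

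Syk had 56.3, 54.0 and 53.6 FPKM in WT, 62.5, 56.6 and 65.4 FPKM in Tyr-NrasQ61K, and 58.3, 57.4 and 63.3 FPKM in MHCII-KO nodes. All 6 NrasQ61K libraries lay above the 3 WT libraries, by a small margin. Syk was the only one of the 7 genes whose groups did not overlap in a comparison with WT. Among all genes tested, 18.7% did not overlap in Tyr-NrasQ61K against WT, 31.3% in MHCII-KO against WT, 13% with both groups against WT, and 3.8% in MHCII-KO against Tyr-NrasQ61K, where 0 of the 7 did. For Syk the log2 fold change was 0.17 in Tyr-NrasQ61K (adjusted p = 0.668 from limma) and 0.12 in MHCII-KO nodes (adjusted p = 0.748 from limma), each with a standard error of 0.206. B cells also contain Syk, and the summed B cell markers were 531 to 661 FPKM in WT, 337 to 667 FPKM in Tyr-NrasQ61K and 357 to 522 FPKM in MHCII-KO nodes. Their part in the Syk values was not tested.

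**Figure D2:**
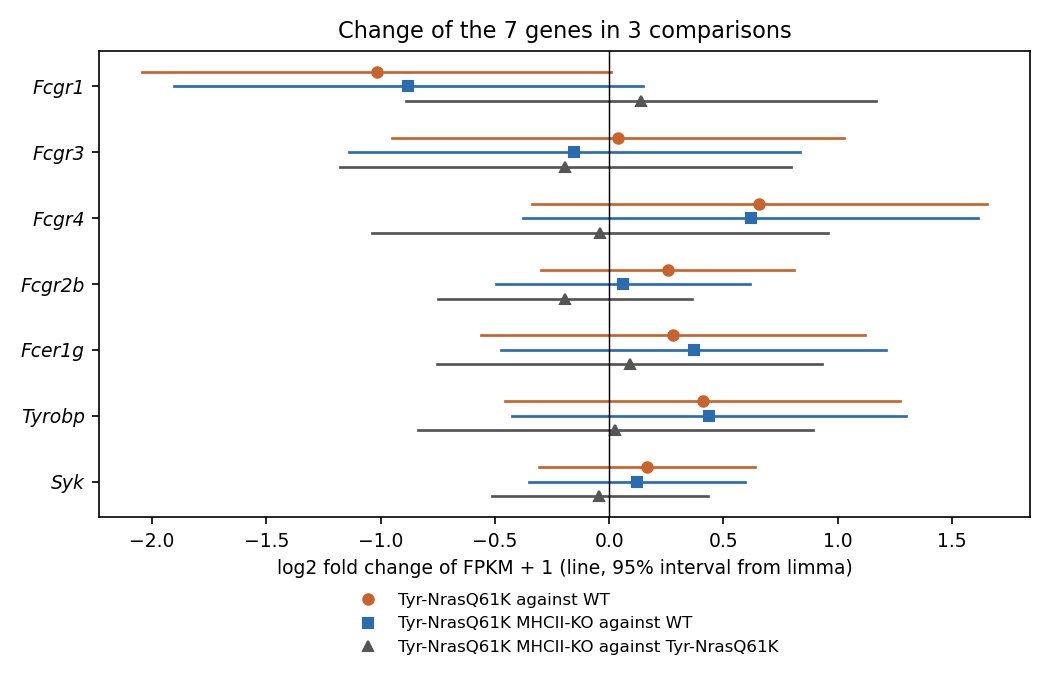
Log2 fold change of FPKM + 1 (horizontal axis) for each gene in 3 comparisons, with 95% intervals from limma as lines. Fcgr1 lies farthest to the left of 0 and Fcgr4 farthest to the right in both comparisons with WT, and every interval includes 0.

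MHCII-KO and Tyr-NrasQ61K nodes were close for all 7 genes. The log2 fold changes between them ran from -0.19 (Fcgr2b and Fcgr3) to 0.14 (Fcgr1), each with an adjusted p of 0.9999 from limma. The 95% intervals still allow a difference of 0.51 in size for Syk and of 1.18 for Fcgr3, so equal levels were not shown.

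The balance of activating to inhibitory receptors was taken in each library as the summed FPKM of Fcgr1, Fcgr3 and Fcgr4 over that of Fcgr2b. It was 0.880, 0.403 and 0.962 in WT, 0.852, 0.377 and 0.607 in Tyr-NrasQ61K, and 0.735, 0.549 and 0.559 in MHCII-KO libraries. The groups overlapped, and the spread within WT alone covered nearly the whole range. The mean log2 ratio was -0.52 ± 0.69 in WT, -0.79 ± 0.59 in Tyr-NrasQ61K and -0.72 ± 0.23 in MHCII-KO nodes (SD, n = 3 each). The difference from WT was -0.27 in Tyr-NrasQ61K and -0.20 in MHCII-KO nodes, smaller than the pooled SD of 0.54. Leaving out single libraries moved these values between -0.67 and 0.04 and between -0.60 and 0.03, so that no direction held. With Fcgr3 alone in the numerator the differences were -0.22 and -0.22, and with Fcgr1 and Fcgr4 without Fcgr3 they were -0.45 and -0.14.

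The make-up of the activating receptors was described apart from their sum. The ratio of Fcgr4 to Fcgr1, chosen after its values were seen and given without a test, was 0.597, 0.637 and 0.493 in the WT libraries. It was 3.59, 3.91 and 2.76 in Tyr-NrasQ61K and 1.80, 3.11 and 3.35 in MHCII-KO libraries. Fcgr1 thus exceeded Fcgr4 in all 3 WT libraries, and Fcgr4 exceeded Fcgr1 in all 6 libraries from animals with the transgene, the low replicate 2 of each group included. The geometric mean was 5.91 times that of WT in Tyr-NrasQ61K and 4.63 times in MHCII-KO nodes. On the log2 scale the differences were 2.56 and 2.21 beside a pooled SD of 0.34, and they ran from 2.46 to 2.71 and from 2.04 to 2.49 when single libraries were left out. Without replicate 2 of all 3 groups they were 2.54 and 2.18. With 1 added to each FPKM they were 1.68 and 1.497.

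Other pairs were compared in the same way. Of the 21 pairs among the 7 genes, 3 had ratios that did not overlap between WT and the 6 NrasQ61K libraries. These were Fcgr1 with Fcgr4, Fcgr1 with Tyrobp, and Fcgr3 with Fcgr4. Fcgr4 over Fcgr3 was 0.117, 0.0912 and 0.116 in WT, 0.246, 0.143 and 0.209 in Tyr-NrasQ61K, and 0.264, 0.234 and 0.185 in MHCII-KO libraries. For scale, 15494 other genes above 0 in every library were set over Fcgr1 in the same way, and 4.74% of these ratios were higher in all NrasQ61K libraries than in any WT library. Set over Fcgr4, 31.1% of them were lower. Set over Fcgr3, 1.18% were higher and 13.7% lower, and set over Fcgr2b, 1.85% were higher and 24.75% lower. An estimated 16 to 92 fragments lay behind each Fcgr4 value outside Tyr-NrasQ61K replicate 2, which had 11, and 17 to 196 behind each Fcgr1 value outside that library.

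**Figure D3:**
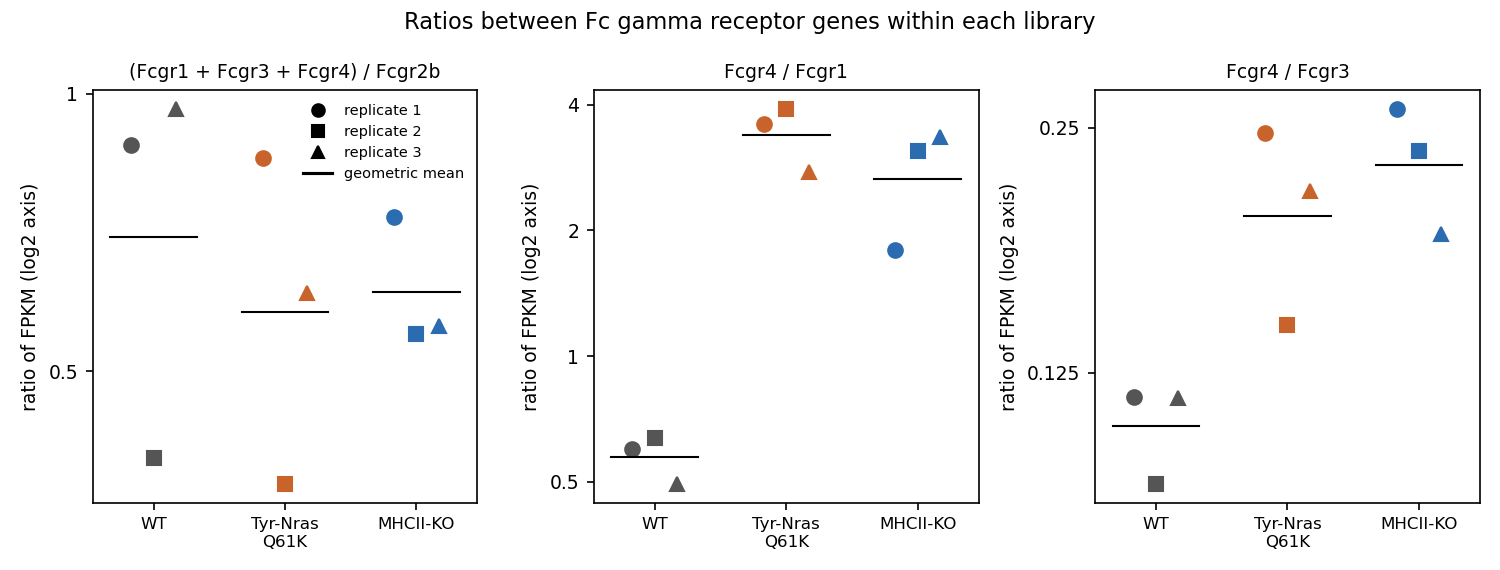
Ratios of FPKM within each library (vertical log2 axes), by group, with geometric means as lines. The activating to inhibitory ratio overlaps between groups, at 0.377 to 0.962, whereas the ratio of Fcgr4 to Fcgr1 is 0.493 to 0.637 in WT and 1.80 to 3.91 in the 6 NrasQ61K libraries.

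Fcgr3 was set beside the sum of 10 macrophage markers that include none of the 7 genes. Their summed FPKM was 1510, 694 and 1438 in WT, 1604, 688 and 1347 in Tyr-NrasQ61K, and 1246, 858 and 1486 in MHCII-KO libraries, with Lyz2 supplying 67.8% to 79.7% of it. The other markers differed in direction, none of them past the test. Mean Csf1r was 54.4 FPKM in WT, 27.97 in Tyr-NrasQ61K and 29.9 in MHCII-KO nodes and mean Adgre1 13.5, 6.44 and 7.66 FPKM, whereas mean Mertk was 7.44, 12.4 and 11.8 FPKM and mean Cd68 25.4, 41.05 and 31.8 FPKM. The sum is therefore mainly a reading of Lyz2 and not a measure of macrophage number. It was lowest in replicate 2 of every group, as the activating receptors were. Per 100 FPKM of these markers, Fcgr3 was 1.22 to 1.68 FPKM across the 9 libraries, a range of 1.38 times compared with 2.66 times for its FPKM. Fcgr2b went the other way, from 1.68 times for its FPKM to 2.17 times per marker FPKM, and Syk from 1.22 to 2.21 times.

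On the same scale, Fcgr1 was 0.272, 0.210 and 0.395 in WT, 0.111, 0.0520 and 0.124 in Tyr-NrasQ61K, and 0.208, 0.102 and 0.0671 in MHCII-KO libraries, with no overlap between WT and the rest, though MHCII-KO replicate 1, at 0.208, was next to WT replicate 2, at 0.210. Fcgr4 was 0.162, 0.134 and 0.195 in WT, and 0.399, 0.203, 0.342, 0.373, 0.318 and 0.225 in the 6 NrasQ61K libraries, also without overlap. Both are descriptions of measures chosen after the values were seen. Of all genes tested, 15.3% were lower and 1.27% higher in all NrasQ61K libraries on this scale. The absence of overlap for Fcgr1 depended on the denominator. Fcgr1 overlapped per 100 FPKM of the 9 markers without Lyz2, at 0.761 to 1.23 in WT and 0.163 to 0.924 in the 6 NrasQ61K libraries. It also overlapped per 100 FPKM of Csf1r, at 4.37 to 8.58 and 1.54 to 9.69, and per 100 FPKM of Adgre1. Per Lyz2, Mertk or Cd68, Fcgr1 was lower without overlap, as were 16.95%, 46.9% and 12.2% of all genes tested. Fcgr4 was higher without overlap per the 9 markers, Csf1r or Adgre1 and overlapped per Mertk or Cd68. The shares of all genes tested that were higher without overlap were 2.363% per the 9 markers, 20.18% per Csf1r and 12.03% per Adgre1. Fcer1g and Tyrobp were likewise higher without overlap on each of these scales, and Fcgr2b per Csf1r, whereas Syk overlapped on each. Fcgr3 was higher without overlap per Csf1r or Adgre1. It was lower without overlap per Mertk, as were Fcer1g and 46.9% of all genes tested.

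**Figure D4:**
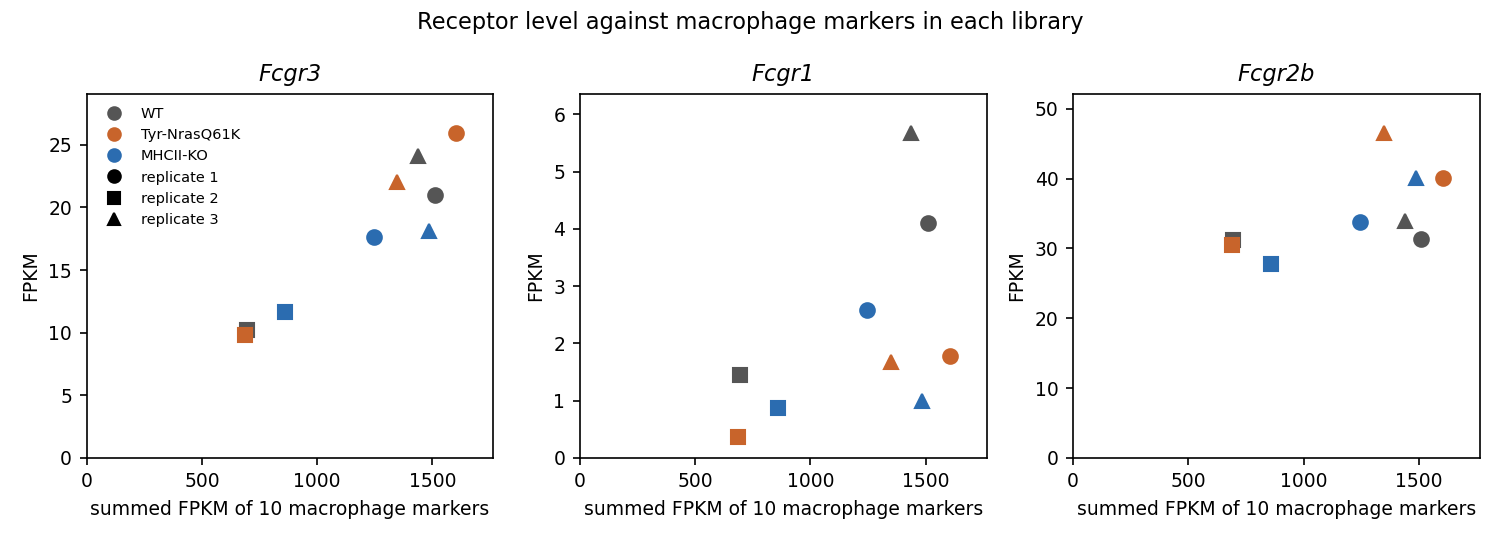
FPKM of Fcgr3, Fcgr1 and Fcgr2b (vertical axes) against the summed FPKM of 10 macrophage markers (horizontal axes) in each of the 9 libraries, coloured by group. Fcgr3 is lowest where the marker sum is lowest in each group, Fcgr1 is highest in the WT libraries with large sums (4.10 and 5.68 FPKM), and Fcgr2b is 31.2 FPKM in WT replicate 2, where the markers sum to 694 FPKM.

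Markers of other cell types are given beside these values. The 6 markers of lymph-node sinus macrophages had sums of 144 to 361 FPKM in WT nodes, while those of Tyr-NrasQ61K nodes ran from 76.6 to 147 FPKM and those of MHCII-KO nodes from 76.0 to 197 FPKM, with Marco as the largest contributor. Mean Marco was 108 FPKM in WT, 22.2 in Tyr-NrasQ61K and 25.9 in MHCII-KO nodes, without overlap with WT. Mean Timd4 was 79.1, 8.02 and 8.86 FPKM, also without overlap. The rest of this list overlapped, with Siglec1 at 37.3, 0 and 0 FPKM in WT and at 8.63 to 18.6 FPKM in the others. The WT libraries with Siglec1 at 0 had Marco at 51.75 and 141.8 FPKM, and their sums hold no Siglec1. Whether these values of 0 are missing values was not tested. The 7 markers of mast cells and basophils had sums of 55.0 to 225 FPKM in WT nodes against 11.6 to 37.0 FPKM in the 6 NrasQ61K libraries, without overlap. The sums of the 6 monocyte markers overlapped, at 69.0 to 132.5 FPKM in WT and 67.1 to 125 FPKM in the others. So did those of the 10 neutrophil markers, at 28.01 to 128.5 and 16.2 to 172 FPKM. Among the single monocyte and neutrophil markers, Cx3cr1 was lower without overlap in both NrasQ61K groups. Its mean was 3.72 FPKM in WT, 1.77 in Tyr-NrasQ61K and 2.08 in MHCII-KO nodes. Ccr2 and S100a8 were lower without overlap in MHCII-KO nodes, and the rest of the monocyte and neutrophil markers overlapped with WT. The 9 dendritic cell markers summed to 92.5 to 145 FPKM in WT, 47.6 to 95.5 FPKM in Tyr-NrasQ61K and 52.5 to 76.0 FPKM in MHCII-KO nodes. Flt3, Ccr7 and Ccl22 were lower without overlap in both groups, Siglech in Tyr-NrasQ61K, and Xcr1, Clec9a and Cd209a in MHCII-KO nodes. The 7 NK cell markers summed to 14.4 to 28.4 FPKM in WT and 9.66 to 17.03 FPKM in the others, with Klrb1c lower without overlap in MHCII-KO nodes. Of the B cell markers, Ms4a1 was lower without overlap in both groups, and Cd79b and Cr2 in MHCII-KO nodes. Of each of these lists 0 genes passed the test, no marker was at 0 in every library, and the part of these cells in the receptor values was not tested. The sums of T cell, plasma cell and follicular dendritic cell markers overlapped between WT and both other groups. Single markers did not all do so. Cd3d was lower without overlap in both groups. In Tyr-NrasQ61K nodes Cd8a was lower and Mfge8 higher, and in MHCII-KO nodes Cd3g, Cd5, Cr2 and Cxcl13 were lower and Cd4 higher. Among all genes tested, 18.7% did not overlap with WT in Tyr-NrasQ61K nodes and 31.3% in MHCII-KO nodes.

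The wider pathway was described with 8 lists of 106 genes, 104 of which were found and 96 tested. In Tyr-NrasQ61K against WT 1 of 96 was called higher and 0 lower, and without adjustment 7 were higher and 12 lower at p under 0.05. In MHCII-KO against WT the counts were 1 and 0, with 4 and 9 unadjusted, and in MHCII-KO against Tyr-NrasQ61K they were 0 and 0, with 0 and 0 unadjusted. With both NrasQ61K groups against WT they were 1 and 0, with 8 and 17 unadjusted. Of all genes tested, 0.235%, 0.145%, 0.0482% and 0.398% were called in these comparisons, in that order. The shares with an unadjusted p under 0.05 from limma were 15.2%, 15%, 1.52% and 21.7%, so the unadjusted counts are near the background. The median log2 fold changes of the lists together were -0.15 in Tyr-NrasQ61K and -0.23 in MHCII-KO nodes against WT, beside -0.12 and -0.22 for all genes.

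The gene called in Tyr-NrasQ61K and in MHCII-KO nodes against WT was Trem2 (ENSMUSG00000023992, chromosome 17 from 48346401 to 48354147), a lipid-sensing macrophage receptor that has no motif of its own and signals through DAP12, the product of Tyrobp. It was 2.08, 0.38 and 1.15 FPKM in WT, 26.6, 16.9 and 22.3 FPKM in Tyr-NrasQ61K, and 17.9, 24.9 and 21.2 FPKM in MHCII-KO libraries. Every NrasQ61K library lay far above every WT library, and the log2 fold change was 3.43 in Tyr-NrasQ61K (adjusted p = 0.00491 from limma) and 3.41 in MHCII-KO nodes (adjusted p = 0.00747 from limma), with a standard error of 0.313. Between the NrasQ61K groups it was -0.03 (95% interval -0.74 to 0.69). Its adaptor Tyrobp, with 53.0 to 123 FPKM in WT and 97.0 to 148 FPKM in the others, was more abundant than Trem2 in every library.

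Of 19 tested receptors that pair with FcRgamma or DAP12 or carry a related motif, Trem2 was thus 1 called higher, and 0 were lower. The most abundant were Itgb2, the common beta 2 integrin chain, and Clec7a, the beta-glucan receptor Dectin-1. Clec7a was 16.2, 6.94 and 15.2 FPKM in WT, 60.8, 10.99 and 45.9 FPKM in Tyr-NrasQ61K, and 31.8, 22.5 and 35.3 FPKM in MHCII-KO libraries, with adjusted p of 0.333 and 0.340 from limma. Clec4d, a C-type lectin that pairs with FcRgamma and is named after its values were seen, was 0.583 ± 0.134 FPKM in WT, 4.20 ± 2.16 in Tyr-NrasQ61K and 4.12 ± 1.14 in MHCII-KO nodes (SD, n = 3 each), without overlap and with adjusted p of 0.138 and 0.163 from limma. Itgam, the alpha chain of the complement receptor CR3 and likewise named after its values were seen, was 18.0 ± 7.31 FPKM in WT, 7.20 ± 4.33 in Tyr-NrasQ61K and 5.47 ± 1.39 in MHCII-KO nodes (SD, n = 3 each), with adjusted p of 0.315 and 0.327 from limma.

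Of 10 tested genes among the other Fc receptors, 0 were called in any comparison, and their median log2 fold changes against WT were -0.46 and -0.55. The most abundant were the B cell genes Fcmr, for the IgM receptor, and Fcrla. Fcer1a, which encodes the IgE-binding chain of the mast cell receptor that also uses FcRgamma, was 5.63, 1.24 and 9.93 FPKM in WT and from 0, in Tyr-NrasQ61K replicate 2, to 1.16 FPKM in the 6 NrasQ61K libraries. Its partner Ms4a2 was 2.77, 1.45 and 2.55 FPKM in WT and 0.06 to 0.62 FPKM in the others. Neither passed (adjusted p of 0.253 and 0.125 in Tyr-NrasQ61K and of 0.325 and 0.185 in MHCII-KO nodes, from limma), and the mast cell markers given above were lower in the same libraries, with their part not tested. Trim21, the cytosolic antibody receptor, was 10.8 ± 2.41 FPKM in WT, 5.29 ± 0.634 in Tyr-NrasQ61K and 5.17 ± 1.15 in MHCII-KO nodes (SD, n = 3 each), without overlap and with adjusted p of 0.205 and 0.235 from limma. These 3 were named after their values were seen.

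The 6 ITAM chains of lymphocyte antigen receptors had median log2 fold changes of -0.91 and -0.84 against WT, with 0 called. Cd79b and Cd79a, the signalling chains of the B cell receptor, were the most abundant, and Cd79b was 202 ± 42.7 FPKM in WT, 118 ± 64.1 in Tyr-NrasQ61K and 109 ± 39.0 in MHCII-KO nodes (SD, n = 3 each). Of the 8 Src family kinases 0 were called, and Lyn, which phosphorylates both ITAMs and the ITIM of Fcgr2b, was 38.9 ± 3.82, 33.7 ± 13.8 and 29.5 ± 6.16 FPKM in WT, Tyr-NrasQ61K and MHCII-KO nodes (SD, n = 3 each). Lck, the T cell kinase, was the next in abundance.

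Downstream of Syk 0 of 23 genes were called. Prkcd and Rac2 were the most abundant of them, and Grb2, the adaptor that links receptors to Ras, was 17.9 ± 0.878 FPKM in WT, 40.7 ± 11.5 in Tyr-NrasQ61K and 33.7 ± 6.40 in MHCII-KO nodes (SD, n = 3 each), without overlap. Grb2 was named after its values were seen, and its adjusted p was 0.179 and 0.319 from limma. Of 13 tested ITIM receptors 0 were called. The most abundant were Sirpa, the receptor for the signal CD47, and the B cell gene Cd72. Sirpa was 68.2, 30.9 and 65.6 FPKM in WT, 101, 139 and 138 FPKM in Tyr-NrasQ61K, and 76.6, 125 and 115 FPKM in MHCII-KO libraries, without overlap (adjusted p = 0.253 and 0.329 from limma).

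Of 13 phosphatases and inhibitory adaptors 0 were called. Inpp5d, which encodes the SHIP-1 that Fcgr2b recruits, was 47.9 ± 7.14, 71.1 ± 20.6 and 52.6 ± 8.75 FPKM in WT, Tyr-NrasQ61K and MHCII-KO nodes (SD, n = 3 each). Ptpn6, for the phosphatase SHP-1, was 84.5, 66.4 and 341 FPKM in Tyr-NrasQ61K nodes, so its mean there was set by replicate 3. Of the 4 tested genes of the phagocyte oxidase, which Fc gamma receptors set off during phagocytosis, 0 were called, and Cybb, its catalytic chain, was 36.8 ± 9.44, 35.01 ± 13.9 and 30.6 ± 4.63 FPKM in the same order (SD, n = 3 each). Ncf4 was the next in abundance.

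**Figure D5:**
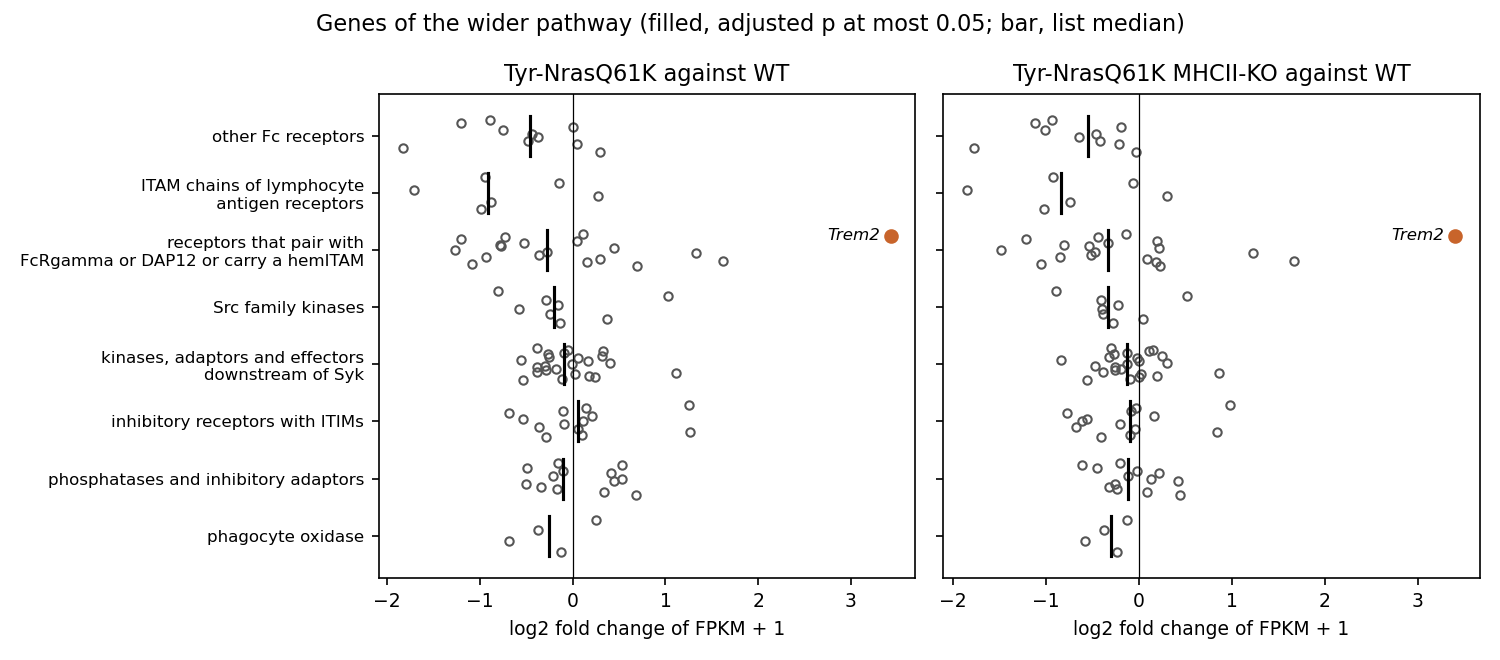
Log2 fold change of FPKM + 1 (horizontal axes) of each tested gene on 8 pathway lists, for Tyr-NrasQ61K and for MHCII-KO against WT in separate panels. Filled points have an adjusted p of at most 0.05 and bars are list medians. Trem2, at 3.43 and 3.41, is the only filled point, and the list medians lie between -0.91 and 0.06.

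The genes whose log2(FPKM + 1) followed that of each member most closely over the 9 libraries were sought. The 7874 candidates had a mean of at least 5 FPKM, and members and genes with predicted, RIKEN or clone symbols were left out. The closest genes are a description, since all points share their libraries. For Fcgr3 they were Cd9, Gde1 and Hexa (Pearson r of 0.987, 0.972 and 0.972), and for Fcgr4 Lum, Clec7a and Ms4a7 (0.967, 0.960 and 0.959). For Fcgr1 they were Ppp1r15a, Csf1 and Magoh (0.984, 0.980 and 0.980). Fcgr2b was closest to Rreb1, Coro1b and Atp8a1 (0.921, 0.918 and 0.912), Fcer1g to Cd93, Hmox1 and Dhrs3 (0.978, 0.949 and 0.935), Tyrobp to Man1c1, Lhfpl2 and Rnh1 (0.941, 0.941 and 0.940), and Syk to Lrp12, Slc43a2 and SNORA73 (0.958, 0.958 and 0.948). Among the members, Fcgr1 and Fcgr4 had a Pearson r of 0.236 over the 9 libraries on the same scale and of 0.912 once each group's mean was removed.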

How the data were processed

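The deposited table holds FPKM per gene, which the authors made with TopHat, Cufflinks and Cuffdiff on mm10 (versions not given in the sources used here), from total RNA sequenced on 1 flow cell. The columns of the authors' own comparisons, with fold changes and p-values, were not used. Of 37819 entries, 18 with several values per library were left out. Genes were kept where 3 or more of the 9 libraries reached an FPKM of 1, and log2(FPKM + 1) of all 3 groups was fitted in limma 3.58.1 (R 4.3.3, trend in the prior variance, Benjamini-Hochberg adjustment), checked on simulated data. Ratios were computed in Python 3.11.15.

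The members and lists were chosen with earlier results of these data known. Named genes were the 7 members, from each list those called and the 2 with the highest mean FPKM, and for each member the 3 closest genes. List genes absent under their symbol were matched by Ensembl ID or RefSeq synonym. Marker Fdcsp and list genes Cyba and Lilrb4b were not analysed here, nor were the Tyrobp promoter and protein sequences. Fragments per library were estimated from 1219 genes with 1 exon and 1 transcript. Alternatives covered scaling, filters, the pseudocount, library weights, a replicate block and leaving out libraries.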

Additional observations from a re-analysis of the deposited data

How the results depend on the processing

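Of 545 recomputed log2 fold changes of the 7 genes, 494 kept their direction and side of the threshold, 45 turned direction and 6 passed it. With weights for the libraries, 2 members were called in Tyr-NrasQ61K against WT (Fcgr1 and Fcgr4), 1 in MHCII-KO against WT (Fcgr1) and 2 with both groups against WT, but 5076, 7407 and 7542 genes were then called in place of 39, 24 and 66. With the replicate number as a block, 1 member (Fcgr1) was called with both groups against WT, beside 2675 genes, and the block called 894 and 777 genes in the first 2 comparisons and 7 in MHCII-KO against Tyr-NrasQ61K. The labels do not say that a number marks shared animals, deviations of same-numbered libraries correlated from -0.038 to 0.332, and 5 of 9 libraries were closest to one of their own number, so the block was not taken as a pairing.

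Counts of called genes also depended on the genes kept. With protein-coding genes only they were 105, 108, 0 and 273 in Tyr-NrasQ61K against WT, MHCII-KO against WT, MHCII-KO against Tyr-NrasQ61K and both against WT, with 0 members called in each.

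The turned values, none of which had passed, were as follows on the log2 scale. Under median-ratio scaling Fcgr3 was 0.121 in MHCII-KO and 0.172 in both groups against WT, and between the NrasQ61K groups Fcgr4 was 0.048 and Syk 0.049. Under quantile normalization these were 0.109, 0.124, 0.090 and 0.106. With a pseudocount of 0.1 Fcgr4 was 0.005 between the NrasQ61K groups, and with library weights Fcgr1 was -0.303 and Tyrobp -0.076 there. Replicate 2 of both NrasQ61K groups, apart on the first principal component, was also left out, a choice made after seeing the data. Fcgr3 was then 0.040 in MHCII-KO and 0.241 in both groups against WT, and Fcgr1 -0.024, Fcer1g -0.122 and Tyrobp -0.207 between the NrasQ61K groups. Without WT replicate 2 as well, Tyrobp was -0.078 in MHCII-KO against WT and those 3 values stayed -0.024, -0.122 and -0.207.

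With single libraries left out, Fcgr3 ran from -0.319 to 0.442 in Tyr-NrasQ61K, from -0.510 to 0.075 in MHCII-KO and from -0.414 to 0.170 in both groups against WT. Fcer1g ran from -0.052 to 0.542 in Tyr-NrasQ61K and from -0.007 to 0.548 in both groups, and Fcgr2b from -0.064 to 0.193 in MHCII-KO against WT. Between the NrasQ61K groups the ranges were -0.195 to 0.322 for Fcgr1, -0.595 to 0.068 for Fcgr3, -0.515 to 0.298 for Fcgr4, -0.172 to 0.240 for Fcer1g, -0.100 to 0.203 for Tyrobp and -0.099 to 0.004 for Syk. No member was called in any of these fits.

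Per macrophage marker, with denominators chosen after seeing the data, the log2 difference of Fcgr3 between both NrasQ61K groups and WT was -0.068 per the 10 markers and turned to 0.185 per the 9 without Lyz2, 0.820 per Csf1r and 0.887 per Adgre1. Over all 7 denominators that of Fcgr1 ran from -2.209 to -0.537 and that of Fcgr4 from 0.179 to 1.851.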
